A study of Mus musculus with 11 samples.

Results

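The genes described here are 10 mouse glutathione transferases, Gstt1, Gstt2, Gsta4, Gstm1, Gstm2, Gstm5, Gstp1, Gsto1, Mgst1 and Mgst3, out of 21846 genes counted in 11 RNA-seq libraries of mammary carcinoma lines. They were chosen by their gene family and with their TMM-scaled levels in all 11 libraries, compared by line and tumor of origin, already known. Those levels are given as a description, and no call or p-value given for these genes below is independent of that choice. The cells are MamBo lines, cultured from mammary carcinomas of virgin female FVBhuHER2 mice, which carry a human HER2 transgene. The count table lists mouse genes only, so the transgene itself was not analysed here. Tumor A gave MamBo89, a line that keeps HER2. Tumor B gave MamBo43, a line that is HER2-positive but prone to lose HER2, and MamBo38, which is HER2-negative and was grown from a tumor that formed after MamBo43 cells were injected into mice. Untreated cultures gave 2 libraries of MamBo38, 1 of MamBo43 and 2 of MamBo89, and each line also gave 2 libraries after trastuzumab, an antibody against HER2, at 30 µg/ml: replicate 1 after 30 days with the drug and 30 days without it, and replicate 2 after 60 days with it. Trastuzumab-treated MamBo43 is HER2-negative by the study's description, so 6 libraries are HER2-negative and 5, those of MamBo89 and untreated MamBo43, are HER2-positive. The study still detected a small share of HER2-positive cells in treated MamBo43 cultures, so these 2 libraries may mix cells. MamBo89 untreated replicate 1 carries the name AG3 and is taken as the single clone that the study lists, while replicate 2 is the parental culture.

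Glutathione transferases join the tripeptide glutathione to reactive molecules, among them lipid peroxidation products, drugs and carcinogens, which are then pumped out of the cell and broken down to mercapturates. The soluble enzymes fall into classes named by Greek letters: theta (Gstt), alpha (Gsta), mu (Gstm), pi (Gstp) and omega (Gsto). The microsomal enzymes (Mgst) are membrane proteins of another family, MAPEG, which also makes leukotrienes and prostaglandin E. Many of these genes are known targets of NRF2, the transcription factor that responds to oxidants and electrophiles through antioxidant response elements.

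Total counts ran from 17040454 to 27127662 per library (median 20592201), and all 10 genes passed the filter on low counts. Levels are CPM, that is counts over library sizes scaled by the TMM method and set to a common total. A count of 3, used as the floor of detection, was worth 0.112 to 0.179 CPM and covers counting error only. The AG3 library stood apart from the other MamBo89 libraries, from which 1696 to 2199 genes above 5 CPM differed at least 2-fold. MamBo38 untreated replicate 2 carries another name code than the other MamBo38 libraries, from which 564 to 725 genes differed at least 2-fold, against 10 to 14 genes among those others. Its code is that of every MamBo43 and MamBo89 library. The other MamBo38 libraries thus differ from those lines in code as well as in line, and the 2 cannot be told apart for them. Untreated MamBo43 is a single library, so every value in it is without a replicate. The lines were checked against cell type markers. The summed level of 5 epithelial markers was 2282 to 3710 CPM in MamBo89, 3140 CPM in untreated MamBo43, 276 to 1744 CPM in trastuzumab-treated MamBo43 and 1.25 to 2.45 CPM in MamBo38. Of those 5, Krt19 was at or under 3 counts in every library. The 6 mesenchymal markers summed to 207 to 2382 CPM in MamBo89, 698 CPM in untreated MamBo43, 35175 to 40785 CPM in treated MamBo43 and 19486 to 28257 CPM in MamBo38. All 6 leukocyte markers were at or under 3 counts in every library, and the 4 endothelial and 4 adipocyte markers summed to at most 0.893 and 2.67 CPM.

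The promoter sequences below belong to genes with different patterns over the lines, described further on, and are shown as the 250 bases before the RefSeq transcription start (GRCm38.p6), 5′ to 3′ on the strand of the gene. Capitals mark a match to 1 of 3 motifs searched on both strands of windows of 300 bases: the core of the antioxidant response element, TGACNNNGC, present in 12.4% of 32851 mouse promoters, the AP-1 site TGANTCA, present in 7.81%, and the E-box CACCTG bound by EMT repressors such as ZEB1, present in 20.2%. The stretches are chr10:75797732-75797981 on the minus strand for Gstt1, chr3:108017974-108018223 on the minus strand for Gstm1, chr3:107986421-107986670 on the minus strand for Gstm2, chr19:4037913-4038162 on the minus strand for Gstp1 and chr6:138140277-138140526 on the plus strand for Mgst1.
Gstt1: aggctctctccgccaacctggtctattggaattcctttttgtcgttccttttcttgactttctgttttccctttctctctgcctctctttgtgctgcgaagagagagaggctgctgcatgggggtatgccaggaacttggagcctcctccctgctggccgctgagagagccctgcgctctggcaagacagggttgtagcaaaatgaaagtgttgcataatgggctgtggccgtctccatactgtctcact
Gstm1: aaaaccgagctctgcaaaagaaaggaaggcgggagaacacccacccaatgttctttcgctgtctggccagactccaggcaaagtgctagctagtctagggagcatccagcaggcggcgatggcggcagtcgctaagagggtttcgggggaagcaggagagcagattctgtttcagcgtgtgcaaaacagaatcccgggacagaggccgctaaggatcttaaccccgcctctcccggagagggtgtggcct
Gstm2: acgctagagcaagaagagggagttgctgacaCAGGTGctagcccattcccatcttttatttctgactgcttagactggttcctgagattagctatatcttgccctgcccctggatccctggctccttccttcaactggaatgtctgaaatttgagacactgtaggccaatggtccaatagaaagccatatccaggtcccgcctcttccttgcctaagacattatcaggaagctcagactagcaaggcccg
Gstp1: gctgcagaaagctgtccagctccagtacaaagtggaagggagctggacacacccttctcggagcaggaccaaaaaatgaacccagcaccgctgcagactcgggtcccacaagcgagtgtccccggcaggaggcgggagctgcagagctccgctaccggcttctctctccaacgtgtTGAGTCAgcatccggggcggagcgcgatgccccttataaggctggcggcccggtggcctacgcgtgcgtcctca
Mgst1: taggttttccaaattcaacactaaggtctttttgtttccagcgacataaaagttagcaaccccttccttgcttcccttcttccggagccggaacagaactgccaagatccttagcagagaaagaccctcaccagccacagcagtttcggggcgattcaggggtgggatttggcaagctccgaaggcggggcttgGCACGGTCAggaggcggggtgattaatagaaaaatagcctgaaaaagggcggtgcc
Mgst1 held an element core on the reverse strand (GCACGGTCA, first base at -56 from the start), while a second RefSeq promoter of Mgst1 and one of Gstm1, not printed, held none of the motifs. Gstp1 held an AP-1 site (TGAGTCA at -74) and Gstm2 an E-box on the reverse strand (CAGGTG at -219), as did Gsto1, not printed, at -200. Gstt1 and Gstm1 held none of the 3 motifs in these windows. RefSeq promoters were matched for 8 of the 10 genes. A match describes letters and does not show that a factor binds.

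Gstt1, a theta class enzyme that also acts on small halogenated molecules, lies at chr10:75783813-75798584 (GRCm38, minus strand) and was high in 1 library only. It had 67.9 CPM (1730 counts) in untreated MamBo43. In trastuzumab-treated MamBo43 it had 1.81 and 1.38 CPM, and in MamBo38 it had 1.06 and 1.06 CPM untreated and 1.13 and 1.39 CPM after trastuzumab. No count of Gstt1 was found in any of the 4 MamBo89 libraries. Untreated MamBo43 was thus far above every other library, the treated MamBo43 and MamBo38 libraries overlapped at about 1 CPM, and MamBo89 lay below both. Against the floor of 3 counts per library in MamBo89, Gstt1 was at least 435-fold higher in untreated MamBo43, at least 10.2-fold higher in treated MamBo43 and at least 7.44-fold higher in MamBo38. Untreated MamBo43 was 58.5-fold above MamBo38, which descends from it.

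Gstt2, the other theta enzyme of the 10, lies 32530 bases from Gstt1 (chr10:75831114-75837424, minus strand) and did not share its pattern. It had 0.31 CPM in untreated MamBo43, 0.49 and 0.50 CPM in treated MamBo43, 0.29 to 0.58 CPM in MamBo89 and 0.78 to 1.5 CPM in MamBo38. It was low in every library, with MamBo38 above all others. The gene nearest to Gstt1, Gstt3, is also a theta enzyme whose span ends 2399 bases away. Gstt3 was at 104 CPM in untreated MamBo43, 7.16 and 4.59 CPM in treated MamBo43, 19.5 to 23.0 CPM in MamBo38 and 6.41 to 10.9 CPM in MamBo89. Gstt3 thus had its highest level in the same library as Gstt1, but was detected in every library. No stretch of 75 bases of Gstt1 or Gstt2 occurs in the transcripts of another gene.

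**Figure D1:**
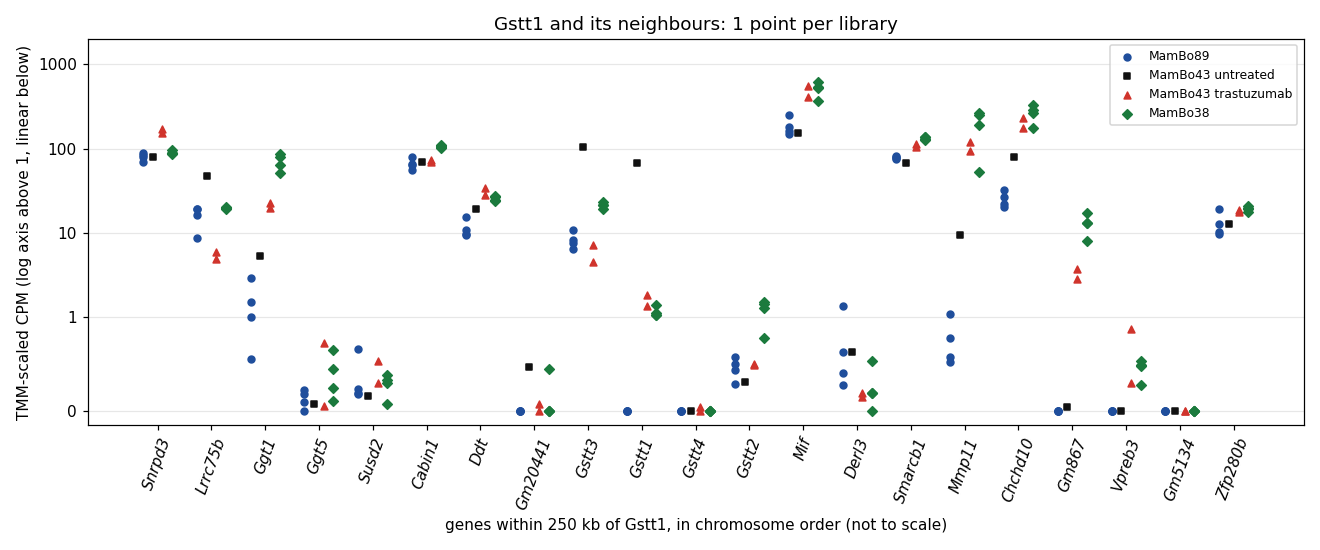
TMM-scaled CPM (log axis above 1, linear below) of Gstt1 and the counted genes within 250 kb of it, in chromosome order, with 1 point per library. Gstt1 (67.9 CPM) and Gstt3 (104 CPM) stand highest in untreated MamBo43, while Mmp11 and Ggt1 are highest in MamBo38.

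Among the other genes within 250 kb of Gstt1 that passed 1 CPM in any library, Lrrc75b also had its highest level in untreated MamBo43, at 47.3 CPM, against 4.97 and 5.88 CPM in treated MamBo43, 19.4 to 20.4 CPM in MamBo38 and 8.68 to 19.1 CPM in MamBo89. Mif, which encodes a cytokine, was at 151 CPM in untreated MamBo43, 414 and 552 CPM in treated MamBo43, 370 to 618 CPM in MamBo38 and 151 to 251 CPM in MamBo89. Mmp11, a matrix metalloproteinase, was at 9.49 CPM in untreated MamBo43, 94.2 and 121 CPM in treated MamBo43, 52.4 to 266 CPM in MamBo38 and 0.53 to 1.10 CPM in MamBo89. Ggt1, the gamma-glutamyltransferase that starts the breakdown of extracellular glutathione, was at 5.37 CPM in untreated MamBo43, 19.6 and 23.0 CPM in treated MamBo43, 51.7 to 86.9 CPM in MamBo38 and 0.55 to 2.95 CPM in MamBo89. Mmp11 and Ggt1 thus rank the lines in another order than Gstt1, with every library of MamBo38 and treated MamBo43 above untreated MamBo43 and with MamBo89 lowest.

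Among the genes with the pattern most like that of Gstt1, by Pearson's r of log2(CPM + 1) over the 11 libraries and 12364 genes, were Ldlrad3 (r = 0.991), Acp5 (0.978), Matn4 (0.961) and Rnf144b (0.956). With 1 library far above the others, r rests mostly on that library. Ldlrad3 was at 190 CPM in untreated MamBo43, 45.7 and 50.2 CPM in treated MamBo43, 38.4 to 44.1 CPM in MamBo38 and 24.7 to 31.7 CPM in MamBo89. Acp5 followed Gstt1 also in its absence from MamBo89, with 20.6 CPM in untreated MamBo43, 0.49 to 1.90 CPM in the other libraries of tumor B and no count in MamBo89. By Spearman's rho the first gene was Wdr31 (0.991), and with a pseudocount of 0.1 it was Cryl1 (r = 0.986).

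Gsta4, the alpha class enzyme that conjugates 4-hydroxynonenal, a product of lipid peroxidation, lies at chr9:78182774-78209349 (plus strand). It had 37.7 CPM in untreated MamBo43 and 3.53 and 2.41 CPM in treated MamBo43. In MamBo38 it had 6.02 and 17.2 CPM untreated and 4.95 and 5.77 CPM after trastuzumab, the 17.2 CPM being in the library with another name code. In MamBo89 it had 9.21 CPM in the AG3 library, 1.89 CPM in the parental culture and 0.87 and 1.60 CPM after trastuzumab. Gsta4 was therefore highest in untreated MamBo43, as Gstt1 was. Treated MamBo43 lay below every MamBo38 library, and MamBo89 reached the range of tumor B only through AG3, its other 3 libraries lying below all of tumor B. Its correlation with Gstt1 over the 11 libraries was r = 0.741.

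Gstm1 and Gstm2, mu class enzymes 25802 bases apart on chromosome 3 (chr3:108012255-108017973 and chr3:107981702-107986453, minus strand), were lower in untreated MamBo43 than in the other libraries of tumor B. Gstm1 had 234 and 248 CPM in untreated and 302 and 280 CPM in treated MamBo38, and 112 and 162 CPM in treated MamBo43. It had 18.2 CPM in untreated MamBo43 and between 0.18 and 1.79 CPM in MamBo89, where the AG3 library was highest. No 2 of these 4 sets overlapped, and the mean in MamBo38 (266 ± 30.8 CPM, SD, n = 4) was 393-fold that in MamBo89, or 874-fold without the AG3 library. Gstm2 had 62.6 to 79.3 CPM in MamBo38 and 52.2 and 53.7 CPM in treated MamBo43, against 0.67 CPM in untreated MamBo43. In MamBo89 it had 1.79 CPM in the AG3 library and 0 to 0.17 CPM in the other 3, at or under 3 counts. Gstm2 thus separated the HER2-negative from the HER2-positive libraries without overlap, with the 6 former at 52.2 CPM or more and the 5 latter at 1.79 CPM or less, and its correlation with Gstm1 was r = 0.961.

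Gstm5, another mu enzyme, at chr3:107895821-107898686 (plus strand) and 83016 bases from Gstm2, varied least of the 10 genes. It had 40.0 CPM in untreated MamBo43, 28.9 and 30.9 CPM in treated MamBo43, 29.1 to 37.0 CPM in MamBo38 and 14.2 to 38.3 CPM in MamBo89, the lowest value being that of the AG3 library. Apart from AG3, its libraries spanned 25.5 to 40.0 CPM and the lines overlapped. The RefSeq promoter of Gstm5 held both an antioxidant response element core (TGACCACGC at -42) and an AP-1 site (TGACTCA at -176). Of the transcript stretches of 75 bases, 11.7% for Gstm1, 7.47% for Gstm5 and 1.85% for Gstm2 also occur in another gene or pseudogene, so part of the mu class reads could have been assigned to either.

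Gstp1, the pi class enzyme and a widely used marker of drug resistance in tumors, lies at chr19:4035407-4037985 (minus strand) and had the highest CPM of the 10 in MamBo38. It had 1411 and 1348 CPM in untreated and 1523 and 1367 CPM in treated MamBo38. It had 306 and 322 CPM in treated MamBo43, 116 CPM in untreated MamBo43 and 87.7 to 136 CPM in MamBo89. Untreated MamBo43 lay within the range of MamBo89, treated MamBo43 was above both, and MamBo38 was 12.1-fold above untreated MamBo43. Its neighbour Gstp2 shares 29.2% of the 75-base stretches of Gstp1, so the split of reads between them is uncertain. Gstp2 was at 15.3 to 21.4 CPM in MamBo38 and 8.10 and 12.2 CPM in treated MamBo43, against 0.35 CPM in untreated MamBo43 and 0.06 to 1.60 CPM in MamBo89.

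Gsto1, the omega class enzyme that reduces dehydroascorbate and methylated arsenicals, lies at chr19:47854970-47864790 (plus strand) and was the only one of the 10 with its highest level in treated MamBo43. It had 506 and 530 CPM there, 302 to 362 CPM in MamBo38, 221 CPM in untreated MamBo43, and 61.4, 61.2, 58.3 and 33.7 CPM in MamBo89. The 4 sets did not overlap, and Gsto1 was 4.12-fold higher in untreated MamBo43 than in MamBo89.

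Mgst1, a microsomal transferase and glutathione peroxidase of the endoplasmic reticulum and mitochondria, lies at chr6:138140316-138156755 (plus strand) and was the gene of the 10 that was lower in every HER2-negative library. It had 293 CPM in untreated MamBo43 and 237, 188, 132 and 196 CPM in MamBo89. It had 11.8 and 9.44 CPM in treated MamBo43 and 8.09 to 11.3 CPM in MamBo38. Treated MamBo43 and MamBo38 overlapped, and Mgst1 was 21.0-fold lower in the HER2-negative mean than in the HER2-positive mean. Mgst1 ran opposite to Gstm2 over the 11 libraries (r = -0.970).

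Mgst3, the other microsomal enzyme, at chr1:167371966-167393841 (minus strand), had 7.84 CPM in untreated MamBo43, 2.45 and 1.64 CPM in treated MamBo43, 8.24 to 11.4 CPM in MamBo38 and 0.23 to 0.78 CPM in MamBo89. MamBo38 and untreated MamBo43 were highest and MamBo89 lowest, with treated MamBo43 between and no overlap of MamBo89 with any library of tumor B.

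**Figure D2:**
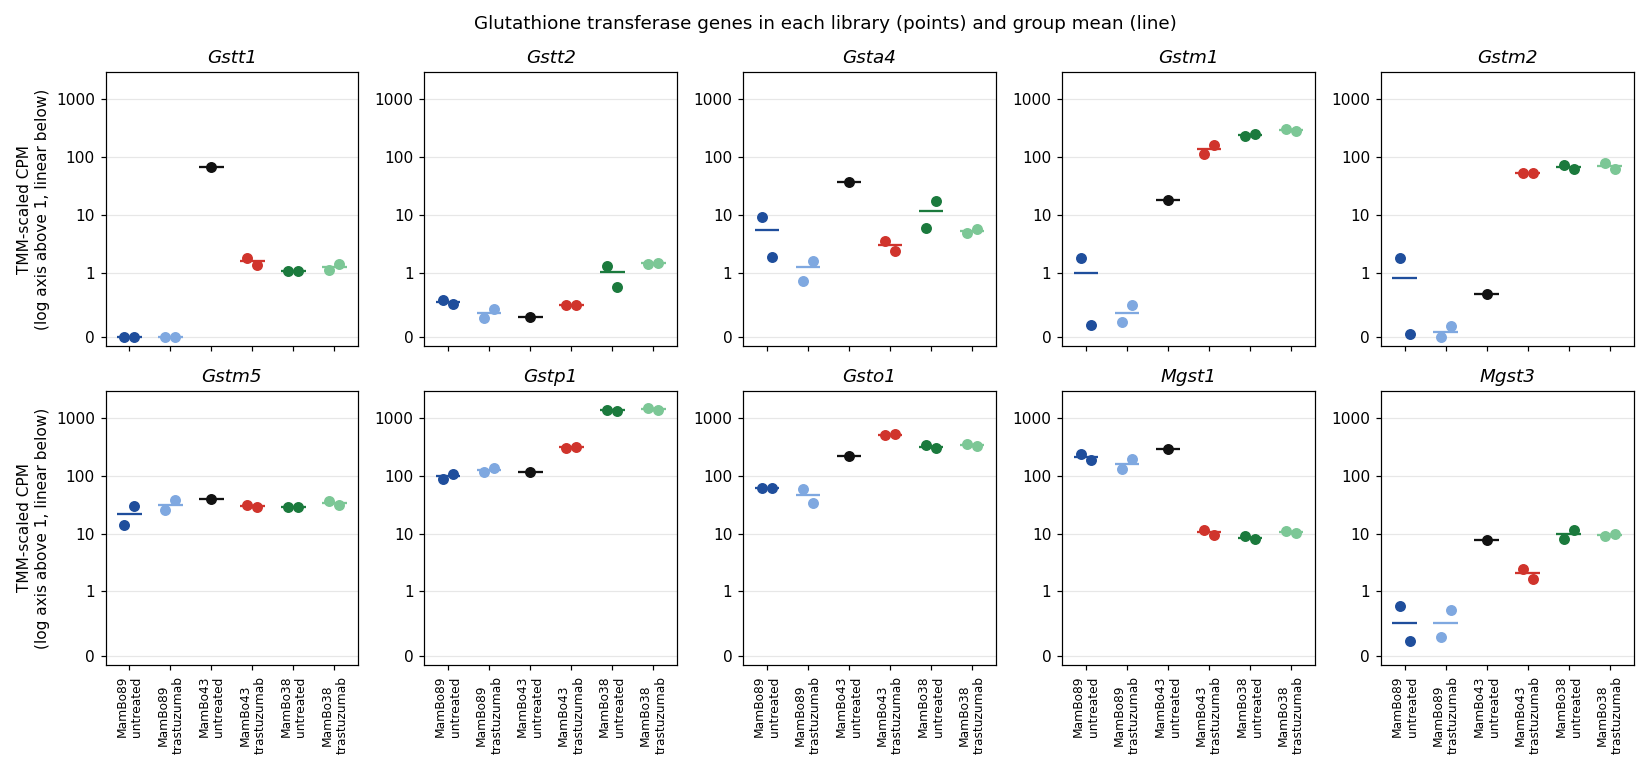
TMM-scaled CPM of each of the 10 genes (log axis above 1, linear below) in untreated and trastuzumab-treated libraries of the 3 lines, with 1 point per library and a line at each group mean. Gstt1 stands at 67.9 CPM in untreated MamBo43 and at 1.81 CPM or less elsewhere, Gstm2 is at 52.2 CPM or more in the 6 HER2-negative libraries, and Mgst1 is at 11.8 CPM or less in them.

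Summed over the 10 genes, the level was 334 to 415 CPM in MamBo89, 804 CPM in untreated MamBo43, 1028 and 1112 CPM in treated MamBo43 and 2029 to 2331 CPM in MamBo38. The 4 sets did not overlap, and the enzyme that led them differed. Per kilobase of exon, the first gene was Mgst1 in MamBo89 (93.7 CPM per kb) and in untreated MamBo43 (146 CPM per kb), Gsto1 in treated MamBo43 (256 CPM per kb) and Gstp1 in MamBo38 (912 CPM per kb). Gstp1 gave 65.3% to 66.8% of the summed CPM in MamBo38, 14.5% in untreated MamBo43, 29.8% and 29.0% in treated MamBo43, and 21.1% to 34.8% in MamBo89.

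Counted by comparison, with a gene called where its adjusted p was under 0.1 and its log2 fold change at least 1 in size, the 10 genes divided as follows. Between tumor B and tumor A, 6 were called higher in tumor B (Gstt1, Gstm1, Gstm2, Gstp1, Gsto1 and Mgst3) and none lower, with 29.6% of all genes called, 17.3% higher and 12.3% lower. Gstt1, Gstm1, Gsto1 and Mgst3 did not overlap between the tumors in any library, as did 25.1% of all genes. Between HER2-negative and HER2-positive libraries, 5 were called higher (Gstm1, Gstm2, Gstp1, Gsto1 and Gstt2) and 1, Mgst1, lower, with 32.8% of all genes called, 15.8% higher and 17% lower. Gstm1, Gstm2, Gstp1, Gsto1 and Mgst1 did not overlap between these groups, as did 34.9% of all genes. The comparison of untreated MamBo43 with untreated MamBo89 asks how a line prone to lose HER2 differs from a stable one while both are HER2-positive. There 5 were called higher in MamBo43 (Gstt1, Gsta4, Gstm1, Gsto1 and Mgst3) and none lower, with 7.40% of all genes called, 4.87% higher and 2.53% lower. Between MamBo38 and untreated MamBo43, 4 were called higher in MamBo38 (Gstm1, Gstm2, Gstp1 and Gstt2) and 3 lower (Gstt1, Gsta4 and Mgst1), with 38.8% of all genes called, 19% higher and 19.8% lower. Between treated MamBo43 and MamBo38, 4 were called lower in treated MamBo43 (Gstp1, Gsta4, Mgst3 and Gstt2) and none higher, with 21.6% of all genes called, 9.9% higher and 11.7% lower. The genes were chosen with these differences known, so nothing is read from the counts. HER2 status and tumor of origin cannot be fully told apart, since all MamBo38 libraries are of tumor B and all MamBo89 libraries of tumor A.

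Within MamBo43, the treated libraries against the untreated one ask what differs after trastuzumab, and here 4 of the 10 genes rose and 4 fell, against 31.1% of 12971 genes called in either direction. By edgeR's quasi-likelihood test, Gstm2 rose by a log2 fold change of 6.32 ± 0.29 (SE, adjusted p = 0.0136) and Gstm1 by 2.92 ± 0.33 (adjusted p = 0.0192). Gstp1 rose by 1.45 ± 0.18 (edgeR adjusted p = 0.0210) and Gsto1 by 1.25 ± 0.18 (adjusted p = 0.0263). The mu, pi and omega enzymes named were those that rose, and both treated libraries lay above the untreated one for each. Gstt1 fell by 5.40 ± 0.27 on the log2 scale and Mgst1 fell by 4.77 ± 0.21, each at an edgeR adjusted p of 0.0136. Gsta4 fell by 3.65 ± 0.33 (edgeR adjusted p = 0.0150) and Mgst3 fell by 1.92 ± 0.42 (adjusted p = 0.0454). Neither Gstm5 (-0.40 on the log2 scale, edgeR adjusted p = 0.197) nor Gstt2 (0.66, adjusted p = 0.517) was called. The median log2 fold change of the 10 was 0.13, against 0.0059 over all genes tested. These values rest on 1 untreated library. The genes were also chosen with the levels in these libraries known, so the p-values are no independent support. Without the 60-day treated library, in a fit over 6 groups of line and treatment, 7 of the 10 genes were called, and Mgst3 was not.

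The same MamBo43 libraries differed in their cell type markers. Of the 6 mesenchymal markers, 5 rose (Fn1, Vim, Zeb1, Zeb2 and Pdgfrb) and Twist1 was not called. Of 4 epithelial markers tested, 1 fell (Cdh1, log2 fold change -2.49, edgeR adjusted p = 0.0601) and 3 were not called. Mouse Erbb2, the endogenous gene of the HER2 receptor, fell from 117 CPM to 31.6 and 19.9 CPM (log2 fold change -2.17 ± 0.33, edgeR adjusted p = 0.0266). By cytometry the study saw HER2-positive cells shrink in share, and cells with stemness markers grow, in MamBo43 kept in trastuzumab. It also saw HER2 loss in untreated MamBo43 seeded at lower density. The part of the cell mixture in the result was not tested here. In these bulk libraries, fewer cells of a type and less RNA per cell cannot be told apart.

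**Figure D3:**
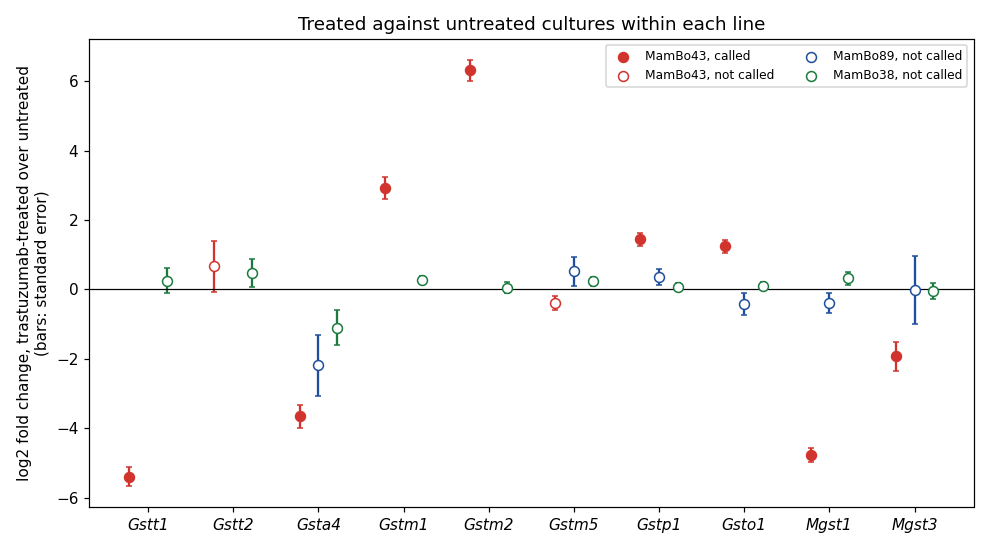
Log2 fold change of trastuzumab-treated over untreated libraries for each of the 10 genes within each line, with bars for the standard error and filled points for called genes. In MamBo43, 4 genes lie above zero and 4 below among the called ones, and no gene is called in MamBo89 or MamBo38. A gene without a point was under the count filter in that line.

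In MamBo89 and MamBo38 no gene was called after trastuzumab. In MamBo89, 6 of the 10 genes could be tested and none was called, with 0% of 12046 genes called and 186 at an unadjusted p under 0.05. Gstt1, Gstt2, Gstm1 and Gstm2 were under the count filter there. In MamBo38 all 10 were tested and none was called, with 0% of 11861 genes called and 503 at an unadjusted p under 0.05. DESeq2 also called none of the 10 in either line. The untreated pair of MamBo89 holds the clone and the parental culture, and with the clone as the only untreated library 4 of the 10 genes were called, Gsta4 and Gstm5 among them, as were 2296 genes over all. The untreated pair of MamBo38 holds both name codes, and without replicate 1 of that pair 1 of the 10, Gsta4, was called, as were 1057 genes over all.

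The difference between the lines in this response was then tested by interaction contrasts, chosen after seeing the data. The genes too were chosen with these levels known, so the p-values of the contrasts are no independent support. Against MamBo89, 5 of 9 genes tested differed, with 22.2% of all genes called. Gstm1, Gstm2 and Gstt2 were under the count filter within MamBo89 and entered only because the filter here covered all libraries. Their values here therefore do not measure a response of MamBo89. Mgst1 differed by -4.40 ± 0.35 (SE, log2, edgeR adjusted p = 0.00139), Gstm2 by 9.64 ± 1.71 (adjusted p = 0.0117), and Gstm1, Gsto1 and Gstp1 by 4.32, 1.65 and 1.08. The size for Gstm2 is no bound, since treated MamBo89 has 3 counts or fewer of it in each library. Without the AG3 library Gstm1 (1.91) and Gstm2 (5.48) were no longer called, and Gsta4 (-3.09) and Mgst3 (-3.08) were. Against MamBo38, 6 of 10 genes differed, with 19.6% of all genes called. Mgst1 differed by -5.12 ± 0.36 (edgeR adjusted p = 0.000545), Gstt1 by -5.67 ± 0.52 (adjusted p = 0.00214), and Gstm2, Gstm1, Gstp1 and Gsto1 by 6.25, 2.64, 1.36 and 1.13. Without the MamBo38 library of the other code Gstm1 (2.59) and Gsto1 (1.21) were no longer called, with differences of about the same size and larger errors. The library left out is the only MamBo38 one with the code of MamBo43, so without it line and code coincide. Both contrasts use the same 3 MamBo43 libraries.

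The remaining 20 transferases and MAPEG proteins of the mouse list gave 11 that could be tested in MamBo43, of which 3 rose and 3 fell after trastuzumab (median log2 fold change 0.010), against 15% of all genes called higher and 16.1% lower in that comparison, which also holds for the lists that follow. Mgst2, a microsomal enzyme that makes leukotriene C4, rose from 2 counts (0.08 CPM) to 3.09 and 7.95 CPM (edgeR adjusted p = 0.0355), a ratio of 74.2 with a 95% exact binomial interval of 20.3 to 616 for counting error only. Gstp2 rose by 4.84 ± 0.56 and Ptges, the inducible prostaglandin E synthase, by 2.56 ± 0.36. Gstt3 fell by 4.14 ± 0.33 (edgeR adjusted p = 0.0143), beside the fall of Gstt1 next to it. The mu enzyme Gstm4 fell by 1.94 ± 0.30 and Gstm6 fell by 3.16 ± 0.80, though Gstm6 was not called by DESeq2, at an adjusted p under 0.05 or without the 60-day library. In HER2-negative against HER2-positive libraries 5 of 11 were higher and 1 lower, against 15.8% and 17% of all genes, likewise for the lists that follow. Ltc4s, leukotriene C4 synthase, led with a log2 difference of 6.70 ± 1.16 (edgeR adjusted p = 0.000658), at 10.1 to 21.3 CPM in MamBo38 but 0.57 and 0.64 CPM in treated MamBo43. Gstp2, Mgst2 and Ptges were also higher, by 4.70, 4.60 and 3.43, and Gstm7 by 1.10. Gsta3 was lower, with a log2 difference of -3.71. When the tumor of origin was added to the fit, neither Gsta3 (-0.90) nor Gstm7 (-0.09) was called. Of 19 alternatives, Gstm7 changed sign in that 1 and lost its call in 5 more. Between untreated MamBo43 and untreated MamBo89, Gstt3 was called, at 3.52 ± 0.48 (edgeR adjusted p = 0.000154), and no other of the 11. DESeq2 called 2 of this list there, and the fit over 6 groups called 5.

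Of 16 genes tested that make, supply or break down glutathione, 5 rose and 3 fell in MamBo43 after trastuzumab (median log2 fold change 0.56), and 8 were not called. Cth, the enzyme that releases cysteine from cystathionine, rose from 5.65 CPM to 56.6 and 71.2 CPM (log2 fold change 3.52 ± 0.29, edgeR adjusted p = 0.0143), while Cbs, the step before it, fell from 136 CPM to 11.2 and 6.92 CPM (-3.90 ± 0.34). Gclc, the catalytic subunit of the rate-limiting ligase of glutathione synthesis, rose by 2.32 ± 0.20, and Ggt7, of the gamma-glutamyltransferase family, by 3.21 ± 0.79. Ggt7 lost its call in 2 of 8 alternatives. Anpep, an aminopeptidase that acts on the products of glutathione breakdown, fell from 744 CPM to 36.0 and 28.7 CPM (-4.51 ± 0.22, edgeR adjusted p = 0.0136). Anpep resembles Gstt1 in being high in untreated MamBo43 and near zero in MamBo89 (0.06 to 0.32 CPM), and its log2 difference between these untreated lines was 11.61 ± 0.67 (edgeR adjusted p = 4.42e-08). Oplah, which recycles 5-oxoproline, was higher in untreated MamBo43 than in untreated MamBo89 by 5.08 ± 0.67 and Cbs by 1.89 ± 0.44, and these were the 3 called of 15. In HER2-negative against HER2-positive libraries 7 of 15 were higher and 1 lower, with Ggt1 at 4.54, Ggt7 at 3.97, Cth at 3.36 and Cbs at -3.95.

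Among peroxidases, reductase, glutaredoxins and NADPH suppliers, 1 of 13 rose and 4 fell in MamBo43 after trastuzumab (median log2 fold change -0.14). Gpx8, a peroxidase of the endoplasmic reticulum, rose by 1.76 ± 0.30 (edgeR adjusted p = 0.0310). Gpx3, the secreted peroxidase, fell by 1.96 ± 0.41, and the NADPH suppliers Idh1 and G6pdx fell by 1.25 and 1.17. In the fit over 6 groups 4 of the 13 were called, and 2 to 3 without 1 treated library, Gpx3 and Idh1 losing their calls. Gpx8 was at 0 to 0.06 CPM in MamBo89 and 10.6 CPM in untreated MamBo43, where the ratio between untreated libraries was 225 with a 95% counting interval of 61.7 to 1868 (2 counts in MamBo89, edgeR adjusted p = 0.00131). Gpx3 was higher there too by a log2 difference of 3.69 ± 1.08, and these were the 2 called of 13. In HER2-negative against HER2-positive libraries 3 of 13 were higher (Gpx8, Gsr and Pgd) and none lower. Of 19 alternatives, Gsr lost its call in 1 and Pgd in 2.

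Of NRF2, its partners and its targets, 10 of 25 rose and 1 fell in MamBo43 after trastuzumab (median log2 fold change 0.62). Nfe2l2, the gene of NRF2 itself, rose from 38.5 CPM to 244 and 351 CPM (2.97 ± 0.33, edgeR adjusted p = 0.0192). Akr1b8 and Cbr3, carbonyl reductases, rose by 7.75 ± 0.52 and 4.75 ± 0.47, and Hmox1, heme oxygenase, by 2.58 ± 0.27. In HER2-negative against HER2-positive libraries 15 of 25 were higher and 1 lower. Nqo1, a quinone reductase and classical NRF2 target, was higher by 6.69 ± 1.03 (edgeR adjusted p = 0.000304), at 335 to 365 CPM in MamBo38 and 18.2 and 21.7 CPM in treated MamBo43. Cbr3, Aldh3a1 and Akr1b8 were higher by 6.35, 6.23 and 5.31. Keap1, the protein that targets NRF2 for degradation, stayed between 43.2 and 59.8 CPM in every library. Between untreated MamBo43 and untreated MamBo89, none of the 24 tested genes of this list was called higher, against 4.87% of all genes. Mafg was the 1 called lower (log2 difference -1.59 ± 0.51), against 2.53% of all genes. These counts rest on 1 MamBo43 library and on the fit. The fit over 6 groups called 5 genes of this list, with 2134 genes called over all, and RLE scaling called none of the list.

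The exporters and mercapturate genes gave 3 of 9 higher and 1 lower in MamBo43 after trastuzumab (median log2 fold change 0.54). Abcc4, an efflux pump for conjugates, rose from 1.92 CPM to 129 and 179 CPM (6.34 ± 0.38, edgeR adjusted p = 0.0141), Abcc5 rose by 3.89 ± 0.32 and Abcc1 by 1.44 ± 0.28, while Abcc3 fell by 2.82 ± 0.64. In 1 of 7 alternatives Abcc3 lost that call. The same 4 genes were called in HER2-negative against HER2-positive libraries, with Abcc4, Abcc5 and Abcc1 higher by 6.17, 5.21 and 1.85 and Abcc3 lower (-5.76). None of 8 was called between untreated MamBo43 and untreated MamBo89. No gene of these 5 lists was called after trastuzumab in MamBo89 or MamBo38.

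**Figure D4:**
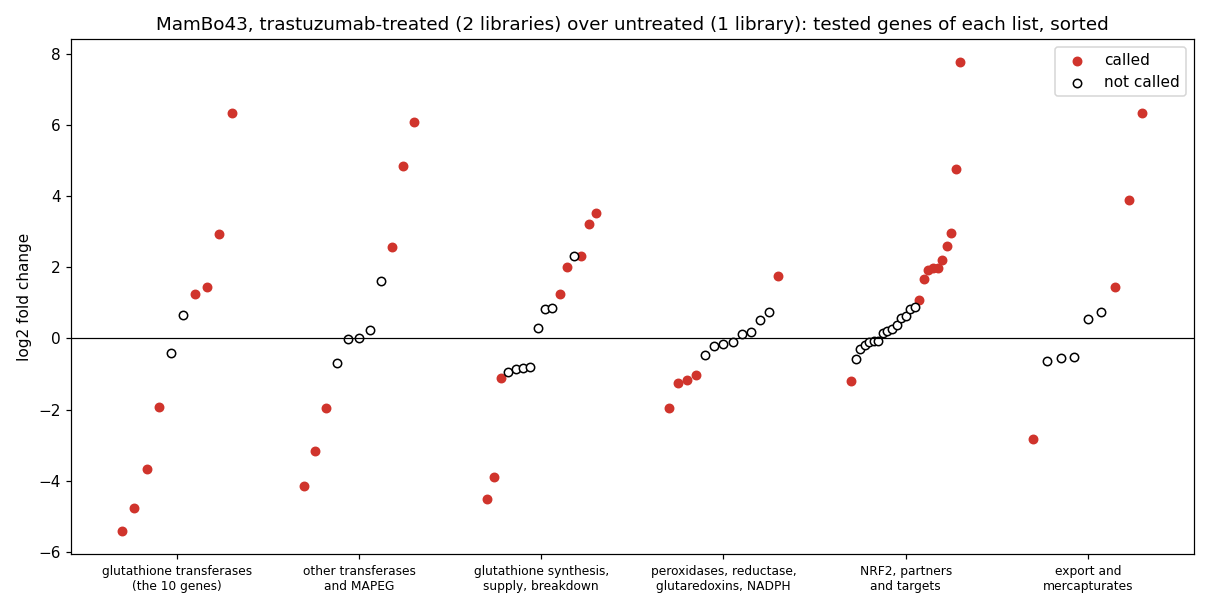
Log2 fold change of trastuzumab-treated (2 libraries) over untreated MamBo43 (1 library) for each tested gene of the 10 transferases and of the 5 other lists, sorted within a list, with filled points for called genes. Among NRF2, its partners and its targets 10 points are called above zero and 1 below, while peroxidases and NADPH suppliers have 1 above and 4 below.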

How the data were processed

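RNA-seq libraries of 11 cultures were analysed. Per the labels and the study's methods, the authors aligned reads with STAR 2.5 and made expected counts by RSEM 1.3.0, and the processing notes name mm10. The deposited counts, 1 column per library, held no fraction, so no rounding was needed here, and their totals differ between libraries. The annotation the authors used is not given in the sources used here. GENCODE M21 on GRCm38 gave positions and shared 75-base stretches, and RefSeq gave promoters.

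In R 4.3.3, edgeR 4.0.16 was run on the libraries of each comparison, with filterByExpr (minimum count 10, minimum total 15), TMM scaling, glmQLFit and glmQLFTest. A call needed a Benjamini-Hochberg adjusted p under 0.1 over all genes tested and a log2 fold change of 1 or more in size. Errors (SE) are the size of the log2 fold change over the square root of F. DESeq2 1.42.0, other scaling and filters, covariates and leaving out libraries were alternatives. A fit that leaves 1 library in a group assumes that it varies like the others. The study's methods state several replicates for each sample, fewer for trastuzumab-treated MamBo38, but the counts hold 1 or 2 libraries per group of line and treatment. Libraries of a group differ in drug schedule, clone or name code, and none is labelled as a repeat of the same culture. The p-values thus measure the spread between these libraries. No pair of libraries within a line was identical, and chi-square per degree of freedom was 7.89 or more. In data simulated for the MamBo43 comparison, 87.0% of 200 genes changed 8-fold were called. Smaller changes were not simulated. The lone untreated library was drawn with the spread fitted to these data, so how another untreated culture would differ was not probed.

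The 10 genes and all gene lists were chosen with earlier results of these data known. Named were the 10 genes, from each list the called genes with the 4 largest changes, every other called transferase, the 5 genes most like Gstt1 (1 of them is not reported here), genes near it and Erbb2. Gclc and Keap1 were added after their values were seen.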

Additional observations from a re-analysis of the deposited data

Results flagged for a closer look

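Of 49 sets of levels of 4 to 7 libraries tested for 1 library far from the others, 15 had such a library, where chance gives about 1 in 20. The genes were chosen with these levels known and the HER2-positive and tumor B sets mix lines, so nothing is read from that count. Untreated MamBo43 stood apart in 9 of them. Among the 5 HER2-positive libraries it was highest for Gstt1 (67.9 CPM), Gsta4 (37.7 CPM), Gstm1 (18.2 CPM), Gsto1 (221 CPM) and Mgst3 (7.84 CPM), and the other 4 are all MamBo89. Among the 7 libraries of tumor B it was highest for Gstt1 (67.9 CPM), Gsta4 (37.7 CPM) and Mgst1 (293 CPM) and lowest for Gstm2 (0.667 CPM). The AG3 library was highest in MamBo89 for Gsta4 (9.21 CPM) and Gstm2 (1.79 CPM), and the 60-day library was lowest in MamBo89 for Gsto1 (33.7 CPM). MamBo38 untreated replicate 2, of the other name code, was highest for Gsta4 (17.2 CPM) in MamBo38 and in the HER2-negative libraries (17.2 CPM). MamBo38 trastuzumab replicate 1 was highest for Gstm5 (37.0 CPM) in the HER2-negative libraries.

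The trastuzumab difference in MamBo43 differed from that in another line, by an interaction contrast in the fit over all libraries (edgeR adjusted p under 0.1), for 11 values on the log2 scale. The genes were chosen with these levels known, so nothing is read from that count. Against MamBo89 the differences were 4.318 for Gstm1, 9.644 for Gstm2 (at 3 counts or fewer in each treated MamBo89 library), 1.083 for Gstp1, 1.652 for Gsto1 and -4.403 for Mgst1. Without the AG3 library those of Gstm1 and Gstm2 were 1.914 and 5.476, and neither was called. Against MamBo38 they were -5.668 for Gstt1, 2.635 for Gstm1, 6.246 for Gstm2, 1.363 for Gstp1, 1.127 for Gsto1 and -5.12 for Mgst1.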

How the results depend on the processing

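Counts of the 10 genes called were the same, within 1.5 times, under RLE scaling, DESeq2, no filter, an adjusted p under 0.05, the pooled fit over 6 groups and the covariates tried. Requiring 10 counts in each library, which removes genes absent from MamBo89, left 2 of 6 between tumors, 3 of 6 between HER2 groups and 1 of 5 between untreated MamBo43 and MamBo89. That filter left 2597 of 4052 genes called over all genes between HER2 groups. Leaving out 1 library in turn gave 6 to 8 between tumors, 5 to 8 between HER2 groups, 6 to 7 between untreated MamBo43 and MamBo89, 7 to 8 in MamBo43 after trastuzumab, 0 to 4 in MamBo89 after trastuzumab, 0 to 1 in MamBo38 after trastuzumab, 7 between MamBo38 and untreated MamBo43, and 2 to 5 between treated MamBo43 and MamBo38. The 4 in MamBo89 came without the parental culture, the 1 in MamBo38 without untreated replicate 1, and the 2 between treated MamBo43 and MamBo38 without MamBo43 trastuzumab replicate 1. With tumor of origin as a covariate, Gstm7 between HER2 groups had a log2 difference of -0.0933 instead of 1.10, and the cause was not tested. No paired analysis was possible because the labels carry no replicate numbers. Fits with the name code as a covariate are among those counted above. With 1 library out, untreated MamBo43 against MamBo89 and MamBo43 after trastuzumab used the fit over 6 groups. That is another model than the main fit, so these 2 ranges are not comparable with the main counts. Levels were limited by depth below about 0.2 CPM, where Gstt1 and Gstm2 lie in most MamBo89 libraries.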
